A study of Mus musculus with 24 samples.

Results

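Cells of mouse embryos whose Dll4 had been blocked with an antibody were sorted into a Kit+ CD45- and a Kit- CD41+ CD45- population, and the 2 populations were compared across all genes. The comparison was chosen by the sample labels alone and rests on 8 of the 24 libraries of the study, 4 per population. C57BL/6J embryos at E10.5 were injected in the heart with anti-Dll4 or, as the control, with anti-human IgG. Culture followed for 5 h, at 37 °C with 5% CO2, in myeloid long-term culture medium with 10 ng/ml IL-3, 10 µM hydrocortisone and 5 µg/ml of the same antibody. After collagenase digestion, cells were sorted by flow cytometry. All sorted cells were CD31+, and the gates added Kit+ CD45- for one population and Kit- CD41+ CD45- for the other. The same 2 populations from IgG embryos, again 4 libraries each, served to say which population differences were also present without the block. The remaining 8 libraries, Kit+ CD45+ cells of both antibodies, entered the model for its estimate of the spread, and with it the gene filter and the scaling. The gates are sets of surface proteins and not cell types. The number of embryos behind a library is not given in the sources used here, so p-values measure the spread between these libraries, which may be technical in part.

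Around this stage blood cells form from the wall of the dorsal aorta: hemogenic endothelial cells lose endothelial properties and bud into the vessel as clusters that hold the first haematopoietic stem cells. Dll4 is a Notch ligand of arterial endothelium, and the title of the study places it at the recruitment of hemogenic cells into these clusters. Kit, the receptor of stem cell factor, marks cluster cells and early progenitors. CD41 is the product of Itga2b, the alpha chain of the platelet fibrinogen receptor. It is found on the earliest embryonic blood progenitors and, at high level, on megakaryocytes and platelets, so a CD41 gate can hold both.

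The 16 libraries of the 4 groups held 8718351 to 11379830 counts, with 18063 to 20474 genes at 1 count or more. The authors' size factors, which measure depth over most genes and not the total, ran from 0.454 in Kit+ CD45- anti-Dll4 replicate 4 to 1.21. In all, 15618 genes passed the filter on low counts. Globin transcripts took 34.0%, 36.2%, 22.1% and 49.3% of the counts of the Kit+ CD45- anti-Dll4 libraries and 8.34%, 13.8%, 10.7% and 14.1% of the Kit- CD41+ ones. The lowest Kit+ CD45- library lay above the highest Kit- CD41+ library. The difference of the means was 23.7 percentage points (exact two-sided permutation test, p = 0.0286, the smallest that 4 against 4 libraries can give; adjusted over 10 comparisons, 0.0714), and under IgG the shares were 26.9 ± 7.21% and 6.63 ± 2.79% (SD, n = 4). Levels below are CPM, counts scaled to equal library totals, here on TMM-scaled library sizes, a scaling meant to keep a few abundant genes from lowering all others. With the globin genes removed beforehand, 4765 genes were called in place of 4672. Replicate 1 of every anti-Dll4 group held Y-linked transcripts (1756 counts in Kit+ CD45-, 2590 in Kit- CD41+) and almost no Xist (5 and 1 counts). The other anti-Dll4 libraries of both populations had 0 Y-linked counts and 1528 to 2194 of Xist. No IgG library of either population had more than 1 Y-linked count, so libraries with Y-linked transcripts in number occurred only with anti-Dll4. Without replicate 1 of all 3 anti-Dll4 groups, 3692 genes were called.

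**Figure D1:**
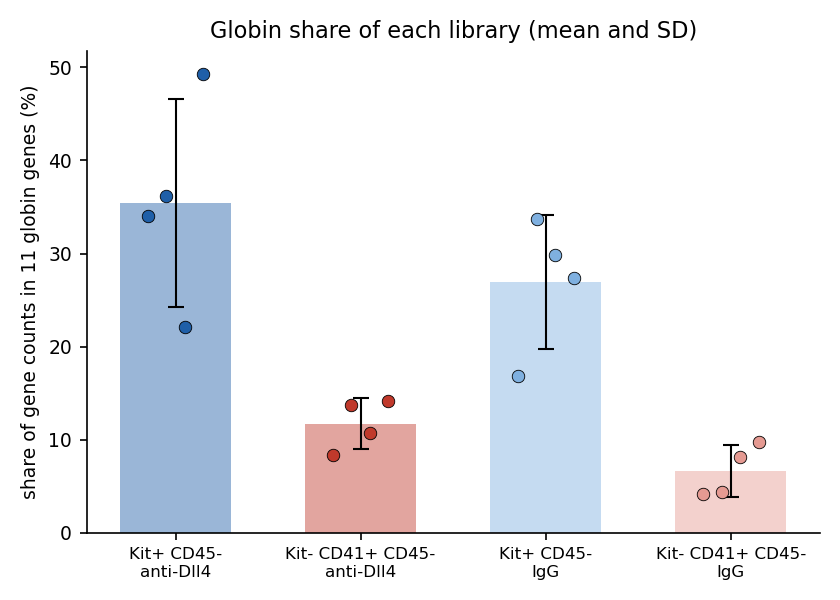
Share of gene counts in 11 globin genes (percent, linear axis from 0) in each library of the 4 groups; bars are means, error bars SD, points single libraries. The 4 Kit+ CD45- libraries of anti-Dll4 lay between 22.1% and 49.3%, above the 4 Kit- CD41+ libraries at 8.34% to 14.1%.

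The gate markers were checked first. Kit (chromosome 5, 75574916 to 75656722, plus strand, GRCm38) read 35.7, 29.2, 48.7 and 21.0 CPM in the Kit+ CD45- anti-Dll4 libraries and 1.91, 0.907, 1.77 and 2.89 CPM in the Kit- CD41+ ones. Itga2b (chromosome 11, 102453297 to 102470122, minus strand) went the other way, with 32.1, 49.9, 49.5 and 26.9 CPM against 360, 460, 583 and 305 CPM. Neither gene's groups overlapped. The log2 fold change of Kit+ CD45- over Kit- CD41+ was 4.18 ± 0.33 (SE; adjusted p = 1.81e-09) for Kit and -3.42 ± 0.39 (adjusted p = 4.14e-07) for Itga2b, by edgeR's quasi-likelihood test with Benjamini-Hochberg adjustment, which stands behind every adjusted p below. Under IgG the same 2 genes differed by 3.30 ± 0.31 and -3.21 ± 0.39. Ptprc, the gene of CD45, was near 0 in both populations as gated, with 0.956, 0.63, 0 and 0 CPM against 0, 0, 0 and 0.89 CPM. It did not pass under anti-Dll4 (adjusted p = 0.629). Under IgG it was called higher in Kit+ CD45- (adjusted p = 0.0151), but on 28 counts over the 4 libraries against 0, with at most 1.51 CPM. Pecam1, the gene of CD31, was present in all 8 libraries, at 74.6, 101, 120 and 47.0 CPM against 48.2, 59.1, 57.2 and 44.8 CPM. Its difference of 0.72 ± 0.28 did not pass (adjusted p = 0.0548), but it did in 8 other settings, among them upper-quartile scaling (adjusted p = 0.0161), the fit with a replicate block (0.0423) and DESeq2 (0.0358), so its call depends on the setting. Under IgG it was 1.21 ± 0.28 (adjusted p = 0.00201).

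The endothelial marker Cdh5 was almost confined to the Kit+ CD45- libraries. Cdh5 (VE-cadherin, the adhesion protein of endothelial junctions; chromosome 8, 104101625 to 104144511, plus strand) read 22.5, 13.6, 13.3 and 15.5 CPM in Kit+ CD45- under anti-Dll4 and 0.502, 0.101, 0 and 0.667 CPM in Kit- CD41+. Every Kit+ CD45- library was more than 10 CPM above every Kit- CD41+ library. The difference was 5.64 ± 0.58 under anti-Dll4 (adjusted p = 8.07e-08) and 5.73 ± 0.54 under IgG. In sorted bulk samples like these, a lower level can mean fewer cells that express a gene or less RNA per cell, and the 2 cannot be told apart.

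**Figure D2:**
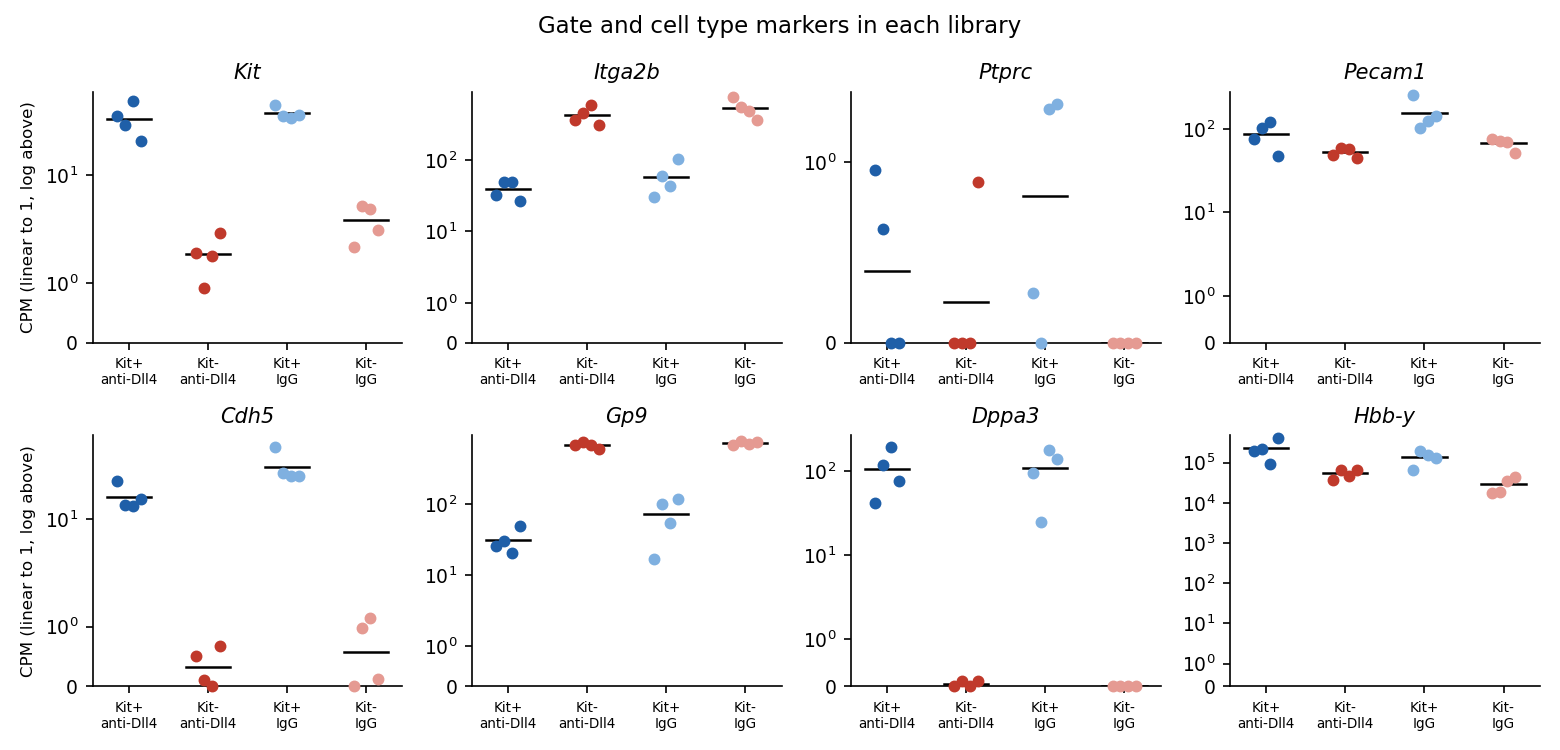
Levels of 4 gate genes (Kit, Itga2b, Ptprc, Pecam1) and of a marker each of endothelium (Cdh5), platelets (Gp9), germ cells (Dppa3) and red cells (Hbb-y) in CPM, linear up to 1 and logarithmic above; each point is a library, each bar the mean of 4. Kit, Cdh5, Dppa3 and Hbb-y were higher in Kit+ CD45- and Itga2b and Gp9 in Kit- CD41+ with no overlap under anti-Dll4, while Ptprc was below 1 CPM in all 8 anti-Dll4 libraries.

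Under anti-Dll4, 4672 genes (29.9%) differed between the populations at an adjusted p of 0.05. Kit+ CD45- was higher for 2291 of them (14.7%) and lower for 2381 (15.2%), and 2862 (18.3%) differed more than 2-fold. The shares of 14.7% and 15.2% are the background for the counts of every gene list below. In 4465 genes (28.6%) the 4 libraries of one population all lay beyond the 4 of the other, and 3779 of the 4672 called genes, or 80.9%, were among them. The median log2 fold change over all genes was 0.068. Under upper-quartile scaling it moved to 0.208 and the higher share of the calls went from 49.0% to 61.3%, so a small difference in either direction depends on the scaling and is best read against that shift. The 10 genes with the smallest p in each direction, which are named in the sections that follow, kept their direction and their call under every alternative that was run. They were chosen by their p in these same libraries, so this outcome was nearly fixed by the choice and says little about other genes.

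Most population differences seen with IgG were seen again with Dll4 blocked. With IgG, 4357 genes (27.9%) were called, 2194 higher (14%) and 2163 lower (13.8%) in Kit+ CD45-. Of these, 3291 (21.1% of all genes tested) were also called under anti-Dll4 in the same direction, which is 75.5% of the IgG calls and 70.4% of the anti-Dll4 calls. No gene called under IgG was called in the opposite direction. Another 1007 kept the sign without passing, and 59, or 1.35%, had the opposite sign without passing. The 2 contrasts come from separate libraries but from the same fit, so they share its gene filter, its scaling and its estimate of the spread. Without replicate 1 of all 3 anti-Dll4 groups, the genes called with both antibodies were 65.8% of the IgG calls and 77% of the anti-Dll4 calls.

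Counted by calls, persistence was less complete on the Kit+ CD45- side. Of the genes higher in Kit+ CD45- under IgG, 68.5% were called again, and of those lower, 82.7%. The median size of the higher genes went from 1.55 under IgG to 1.17 under anti-Dll4 on the log2 scale, and that of the lower genes from 1.21 to 1.22. Seen from the anti-Dll4 side, whose calls were chosen in their own libraries, 65.6% of the higher and 75.1% of the lower calls were also called under IgG. The median size of these higher genes went from 1.23 under anti-Dll4 to 1.035 under IgG, and that of the lower genes from 1.33 to 1.06. The medians thus depend on the contrast that chose the genes and do not show a smaller difference on the Kit+ CD45- side alone. A gene that passes with one antibody and not with the other is not thereby shown to differ between them. The direct test of the change in the population difference, the interaction term of the same model, called 0 of 15618 genes with edgeR (0%). At an unadjusted p under 0.05 there were 596 genes (3.82%), and DESeq2 called 5. The test had limited reach, with a median standard error of a change of 0.46. In simulated data it found 38% of genes whose difference had been changed 4-fold and 3% of those changed 2-fold. The simulation gave all genes the same spread and changed 200 of them, so these shares are only a rough guide to real genes. Among the 3291 genes called with both antibodies, 1542 had a 95% interval of the change that lay within 2-fold either way.

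**Figure D3:**
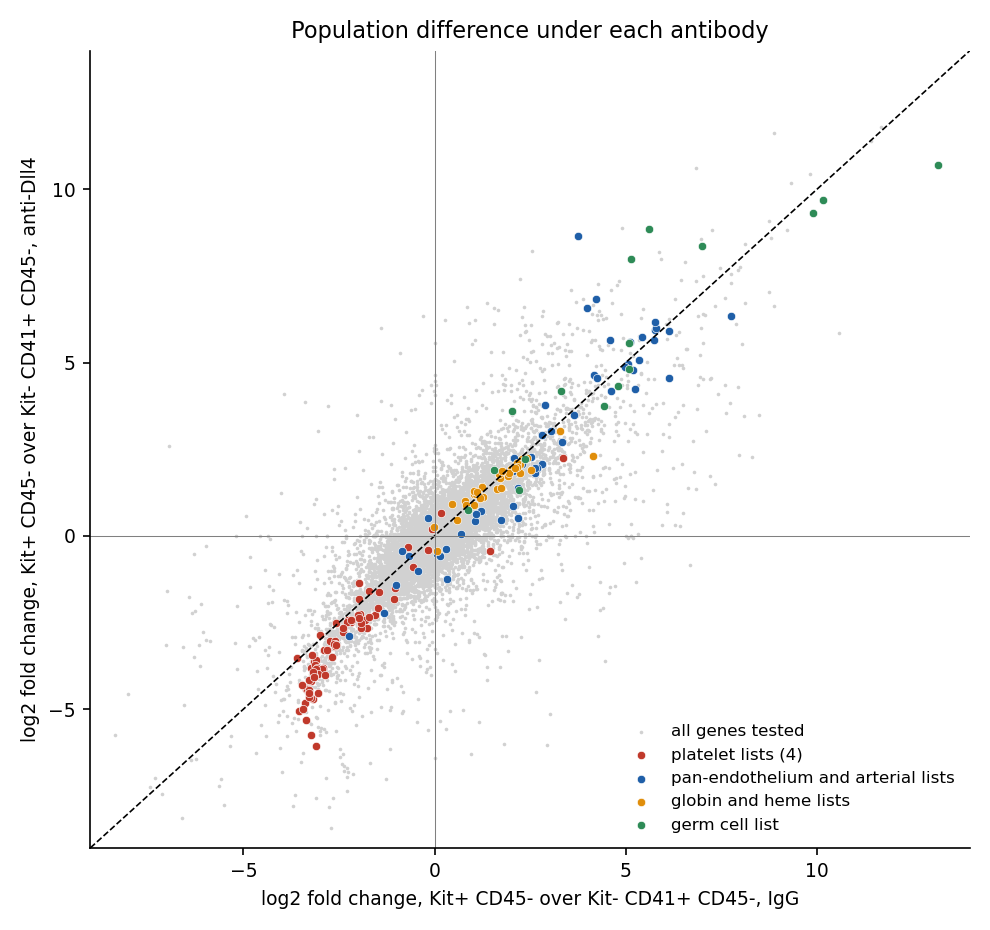
Log2 fold change of Kit+ CD45- over Kit- CD41+ under IgG (x axis) and under anti-Dll4 (y axis) for the 15618 genes tested (grey points), with members of 4 platelet, 2 endothelial, 2 red cell and 1 germ cell list in colour; the dashed line marks equal values. Platelet genes lie at the lower left, most of them under the line, and germ cell and endothelial genes at the upper right; values far from 0 belong to genes near 0 CPM in one population.

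Endothelial genes were mostly higher in Kit+ CD45-. Of 33 pan-endothelial genes, 22 rose and 2 fell in Kit+ CD45- relative to Kit- CD41+ under anti-Dll4, against a background of 14.7% and 15.2% of all genes. The same 24 were called in the same direction under IgG, and 4 more were called under IgG only. The median log2 fold change of the list was 3.03 under anti-Dll4 and 3.33 under IgG. Ramp2, the co-receptor that turns Calcrl into an adrenomedullin receptor, had the smallest p of all genes higher in Kit+ CD45-. It read 208, 132, 120 and 88.8 CPM against 4.62, 3.53, 5.33 and 4.12 CPM, with a log2 fold change of 4.96 ± 0.38 (adjusted p = 1.22e-09; IgG, 5.05 ± 0.38). The lowest Kit+ CD45- library was more than 10 times the highest Kit- CD41+ one. Cd93, a C-type lectin-like protein of endothelial adhesion, read 68.6, 46.6, 41.3 and 28.9 CPM against 1.71, 1.91, 1.67 and 2.11 CPM (4.64 ± 0.37, adjusted p = 2.06e-09). For Emcn, a sialomucin of venous and capillary endothelium, the means were 184 ± 65.8 and 3.47 ± 2.81 CPM (SD, n = 4), and for Cldn5, a tight junction protein, 98.5 ± 36.1 and 1.64 ± 1.48 CPM. Robo4, an endothelial guidance receptor, had 0 counts in all 4 Kit- CD41+ libraries and 6.01, 7.81, 3.4 and 2.19 CPM in Kit+ CD45-, so that Kit+ CD45- was at least 15.5-fold higher with 3 counts in each library taken as the floor.

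Not every endothelial gene followed. Tie1 (16.8 ± 4.99 against 22.1 ± 3.6 CPM) and Esam (74.0 ± 23.5 against 111 ± 15.6 CPM), 2 surface proteins of endothelium that blood progenitors and platelets also carry, did not pass. Kdr, the main VEGF receptor, read 73.9, 56.3, 46.6 and 45.3 CPM against 46.9, 38.9, 37.6 and 42.9 CPM. These groups overlapped, and the difference of 0.42 ± 0.23 did not pass (adjusted p = 0.182), while under IgG it was 1.05 ± 0.23 (adjusted p = 0.00126; change between antibodies -0.63, 95% interval -1.30 to 0.04). The 2 pan-endothelial genes that fell are shared with megakaryocytes: Vwf, the von Willebrand factor that tethers platelets, at 18.3 ± 8.17 against 137 ± 30.6 CPM, and Fli1, an ETS transcription factor, at 31.9 ± 10.9 against 149 ± 19.3 CPM.

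Arterial genes were mostly higher in Kit+ CD45- as well. Of 23 arterial genes 15 rose and 0 fell, and all 15 were also higher under IgG; the median was 2.08, or 1.96 with genes at 0 in one population set to their floor, against 2.64 under IgG. The transcription factors Sox17 and Sox18 read 28 ± 12.2 and 35.8 ± 12.1 CPM in Kit+ CD45- and 0.239 ± 0.245 and 0.588 ± 0.675 CPM in Kit- CD41+. Unc5b, a netrin receptor, was at 2.4 ± 1.04 against 0.304 ± 0.245 CPM. Cxcr4 (3.35 ± 0.865 against 3.23 ± 0.808 CPM) and the gap junction gene Gja5 (3.59 ± 1.3 against 2.49 ± 0.689 CPM) did not pass. Gja4, another gap junction gene, read 32.1, 4.66, 15.2 and 8.09 CPM against 27.6 to 32.5 CPM. It did not pass either (adjusted p = 0.0763), and it was called lower without replicate 1 of Kit+ CD45-, its highest library (-1.70, adjusted p = 0.00304), and with the replicate block (-1.21, adjusted p = 0.0477), which gives 15 arterial genes higher and 1 lower. In the venous, lymphatic and scavenger list 8 of 15 rose and 0 fell (11 rose under IgG). Stab1, a scavenger receptor, read 74.5, 78.1, 73.6 and 68.9 CPM against 32.9, 33.0, 44.1 and 26.7 CPM (1.11 ± 0.17, adjusted p = 3.19e-05), and Nrp2, a VEGF-C and semaphorin receptor, had means of 18 ± 3.44 and 2.76 ± 2.03 CPM.

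Genes of receptors, junctions and matrix were also higher more often than lower. Among 17 VEGF, Tie and adrenomedullin receptor genes 11 rose, with Flt1 at 77.6 ± 21.7 against 29.8 ± 9.46 CPM, Tek, the angiopoietin receptor, at 24.7 ± 8.23 against 5.92 ± 1.34 CPM, and Calcrl at 41.1 ± 15.3 against 8.82 ± 3.79 CPM. The 1 that fell was the Tek ligand Angpt1, at 22 ± 6.53 against 67.3 ± 18.4 CPM (-1.61 ± 0.33, adjusted p = 0.000608). Of 19 junction genes 12 rose and 2 fell. One of those that fell was F11r, the junctional adhesion molecule A that platelets also carry (73.9 ± 34.6 against 241 ± 4.3 CPM). The collagen and laminin list, genes of the vascular basement membrane among them, had 12 of 17 higher and 0 lower, the same 12 as under IgG. Col4a1, a chain of basement membrane collagen, read 87.4, 53.1, 55.0 and 49.0 CPM against 11.6, 10.1, 8.14 and 8.45 CPM (2.68 ± 0.24, adjusted p = 8.31e-09). Fn1, fibronectin, read 87.3, 73.2, 98.0 and 71.3 CPM against 9.94, 13.2, 6.47 and 10.8 CPM (3.03 ± 0.28, adjusted p = 1.76e-08). Both sets were far apart: the lowest Kit+ CD45- library of either gene was over 4 times the highest Kit- CD41+ library. Over the 5 endothelial lists together (pan-endothelial, arterial, venous, receptors and junctions), 54 of 88 genes tested rose and 5 fell, and 53 and 4 of these did so under IgG as well. A further 8 of the 88 were called under IgG only. The change between antibodies was below 0 in 61 of the 88 (69.3%), against 50.6% of all genes, and 3 had an unadjusted p under 0.05. The lists share genes, and their choice followed earlier results, so these are counts and not tests.

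Dll4 itself is transcribed on the Kit+ CD45- side. It read 11.9, 3.02, 10.1 and 0.437 CPM in Kit+ CD45- under anti-Dll4 and 0, 0, 0.209 and 0.111 CPM in Kit- CD41+. Replicate 4 of Kit+ CD45- was close to the other population, and the groups still did not overlap (6.17 ± 1.01, adjusted p = 5.23e-05). With IgG the levels were 22.9, 7.93, 9.75 and 7.80 against 0, 0.708, 0.1 and 0 CPM. An antibody that blocks the protein does not act on the transcript directly, so these levels are no check of the block. The receptors Notch1 (8.54 ± 2.43 against 2.02 ± 0.525 CPM) and Notch4 (3.95 ± 1.86 against 1.02 ± 0.171 CPM) and the ligand Jag1 (4.82 ± 1.84 against 1 ± 0.27 CPM) were higher as well, and with Dll4 they were the 4 of 10 Notch receptors and ligands that rose. All 4 were also higher under IgG.

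Among 17 Notch target genes 6 rose and 3 fell, against a background of 14.7% and 15.2% of all genes. The 3 that fell are near that background. Each of the called genes was also called in the same direction under IgG. Hes1, a repressor that Notch switches on directly, read 32.0, 30.7, 26.2 and 27.8 CPM against 6.73, 6.85, 9.4 and 5.89 CPM under anti-Dll4. The same gene read 79.9, 45.4, 83.8 and 45.9 against 6.16, 21.7, 29.6 and 14.2 CPM under IgG. Kit+ CD45- was above Kit- CD41+ without overlap in each case, and the difference was 2.01 ± 0.32 (adjusted p = 3.42e-05) with anti-Dll4 and 1.83 ± 0.30 with IgG. The arterial Notch target Hey1 had means of 23.4 ± 10.3 and 4.82 ± 2.73 CPM, Efnb2 7.28 ± 3.49 and 2.08 ± 0.811 CPM, and Nrp1, the VEGF and semaphorin co-receptor, 26.9 ± 9.62 and 1.98 ± 1.29 CPM. Myc was at 167 ± 15.4 against 69.8 ± 19 CPM. On the Kit- CD41+ side stood Hes7, known as an oscillating repressor of the somite clock, with 0.546, 2.65, 0.6 and 1.31 CPM against 26.6, 24.4, 33.5 and 28.9 CPM (-4.48 ± 0.46, adjusted p = 7.67e-08; IgG, -2.77 ± 0.41; change between antibodies -1.71, unadjusted p = 0.00792). Hes6 (-0.94 ± 0.17) and Gata2 (-0.86 ± 0.30, adjusted p = 0.0305) fell by smaller amounts. The call of Gata2 was lost under upper-quartile scaling (adjusted p = 0.0607) and without Kit+ CD45- replicate 2 (adjusted p = 0.106), among other settings. Nrarp, a feedback inhibitor of Notch, did not pass under anti-Dll4 (15.7 ± 6.52 against 8.84 ± 2.49 CPM, adjusted p = 0.0775).

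**Figure D4:**
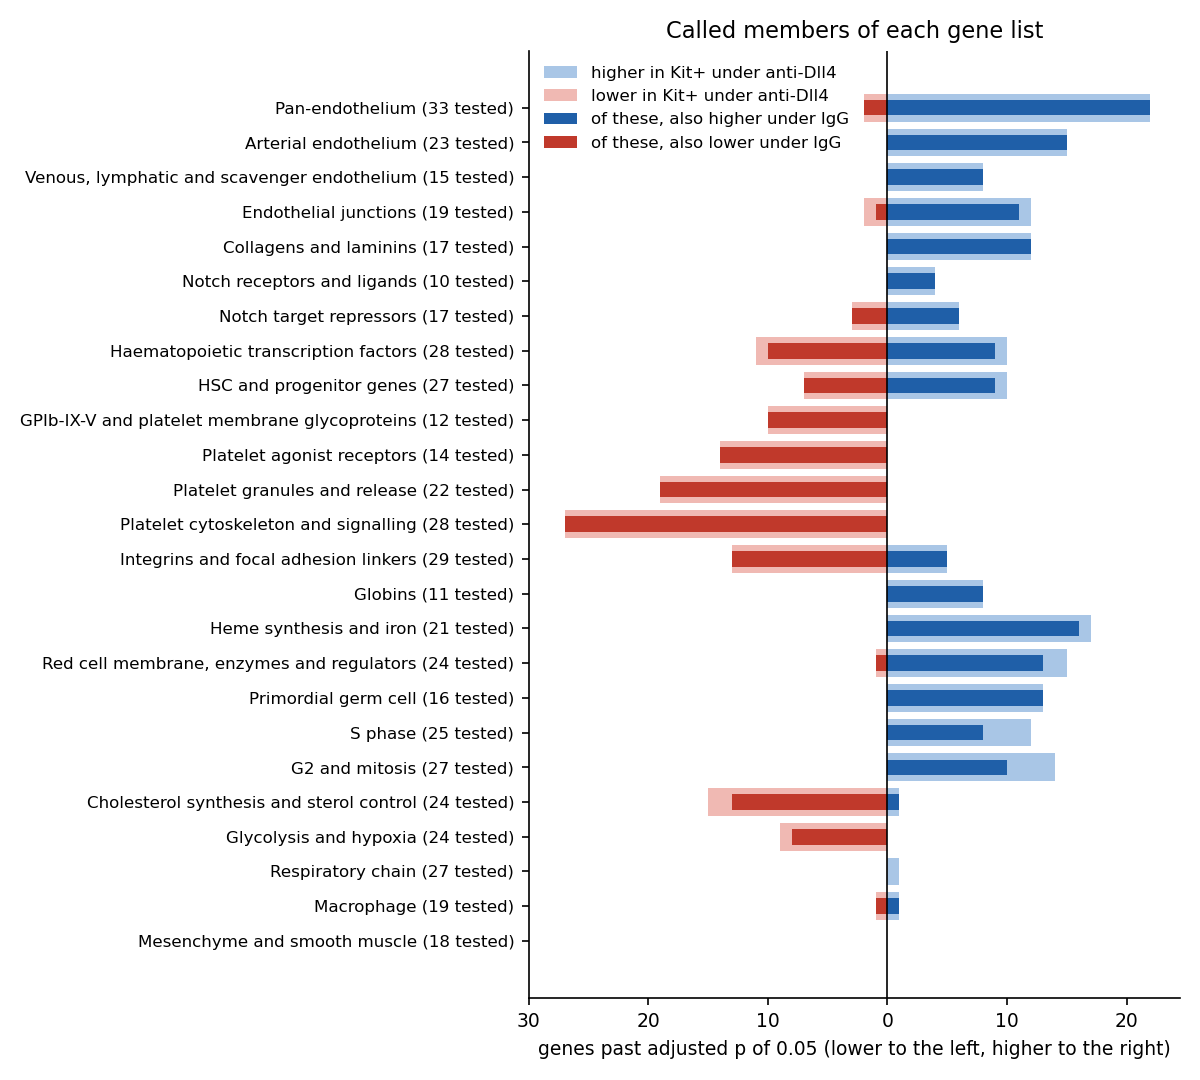
Number of genes past an adjusted p of 0.05 under anti-Dll4 in 25 gene lists, lower in Kit+ CD45- to the left and higher to the right; pale bars count all calls under anti-Dll4 and dark inner bars those that were also called in the same direction under IgG. The 4 platelet lists have no bar to the right and the endothelial, matrix, red cell and germ cell lists few or none to the left.

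Blood transcription factors were called in both directions. Of 28, 10 rose and 11 fell in Kit+ CD45-, with 9 and 10 of these shared with IgG. Runx1, required for the endothelial to haematopoietic transition and kept on in megakaryocytes, read 38.5, 22.5, 37.4 and 41.3 CPM against 153, 136, 153 and 130 CPM (-2.04 ± 0.24, adjusted p = 8.46e-07; IgG, -1.96 ± 0.24). The lowest Kit- CD41+ library was over 3 times the highest Kit+ CD45- library. Meis1 (26.7 ± 11.1 against 128 ± 20.1 CPM), the megakaryocytic factor Nfe2 (134 ± 35.5 against 457 ± 18.5 CPM) and the repressor Gfi1b (206 ± 66.9 against 602 ± 63.9 CPM) fell too. Higher in Kit+ CD45- were Ikzf1, the lymphoid regulator Ikaros (21.9 ± 8.37 against 3.43 ± 1.06 CPM), Myb, needed for definitive blood formation (22.7 ± 9.69 against 4.43 ± 3.39 CPM), Mecom (9.31 ± 4.03 against 2.37 ± 1.94 CPM), the endothelial ETS factor Erg (4.49 ± 1.65 against 0.176 ± 0.207 CPM) and the red cell factor Klf1 (266 ± 80.4 against 83.1 ± 23.2 CPM). Low but one-sided were Gfi1, a repressor of the endothelial programme, with 4.78, 3.78, 9.9 and 0.875 CPM against 0, 0, 0.104 and 0 CPM, and Hlf, a stem cell factor, with 4.1, 4.53, 1.0 and 0.875 CPM against 0.1, 0, 0 and 0.111 CPM. Spi1, the PU.1 factor of myeloid cells, was level (44.7 ± 5.73 against 49.1 ± 25.7 CPM). For Gata1 the 4 libraries of each population lay apart (172 ± 35.8 against 385 ± 6.5 CPM), but the difference of -1.16 ± 0.53 did not pass (adjusted p = 0.1). Fitted on the 8 libraries of the contrast alone it was -1.17 and passed (adjusted p = 0.000162).

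Stem and progenitor genes were called in both directions too. Of 27 tested 10 rose and 7 fell, against 14.7% and 15.2% of all genes, with 9 and 7 shared with IgG. The median was 0.80, or 0.00 with genes at 0 in one population set to their floor. Cd34, a sialomucin of endothelium and progenitors, read 222, 253, 214 and 103 CPM against 16.8, 15.8, 14.6 and 23.6 CPM (3.49 ± 0.38, adjusted p = 2.09e-07). Procr, the endothelial protein C receptor, was at 8.41 ± 3.54 against 0.803 ± 0.852 CPM, and Itga4, the alpha 4 integrin, at 13.8 ± 3.7 against 3.52 ± 1.76 CPM. Among the genes that fell were Slamf1, the gene of CD150 (3.7 ± 3.69 against 109 ± 21.3 CPM), and Adgrg1 (60.2 ± 35.1 against 206 ± 35.1 CPM). Ly6a, the gene of Sca-1, was at most 0.4 CPM in any of the 8 libraries. Lcp1, an actin bundler of blood cells that is among the 10 smallest p on the Kit+ CD45- side, read 33.6, 54.3, 36.3 and 20.1 CPM against 3.01, 3.83, 2.92 and 5.0 CPM (3.30 ± 0.32, adjusted p = 2.95e-08).

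Genes of megakaryocytes and platelets almost all fell in Kit+ CD45-. Over 4 platelet lists 70 of the 76 genes tested fell in Kit+ CD45- and 0 rose, against a background of 15.2% lower, and all 70 were also lower under IgG. Cd36, a scavenger receptor, was higher under IgG (adjusted p = 0.0033) and did not pass under anti-Dll4 (0.0683). It did pass as higher under anti-Dll4 with upper-quartile scaling (0.0482), with DESeq2 (0.0453) and without Kit+ CD45- replicate 3 (0.0453) or Kit- CD41+ replicate 4 (0.0417), so the count of 0 that rose depends on the setting. Clec1b, the podoplanin receptor CLEC-2 of platelets, had the smallest p of all 15618 genes. It read 113, 115, 80.9 and 68.7 CPM against 1104, 1046, 1026 and 1054 CPM, a log2 fold change of -3.48 ± 0.18 (adjusted p = 9.8e-12). The 4 Kit- CD41+ libraries differed from each other by less than 10%.

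The von Willebrand receptor GPIb-IX-V, with which platelets catch on damaged vessels, was low in Kit+ CD45- in all its subunits. Gp9 read 25.3, 29.9, 20.6 and 48.1 CPM against 658, 724, 667 and 588 CPM, Gp1bb had means of 62.1 ± 29.5 and 1347 ± 101 CPM, Gp1ba 8.06 ± 2.18 and 316 ± 34.0 CPM, and Gp5 10.9 ± 3.86 and 275 ± 61.7 CPM. With the other platelet glycoproteins of its list, 10 of 12 fell, and their summed level was 495.1 to 770.3 CPM in Kit+ CD45- and 7165 to 7866 CPM in Kit- CD41+. Platelet agonist receptors fell in 14 of 14, among them the collagen receptor Gp6 (2.91 ± 1.26 against 155 ± 18.1 CPM), the ADP receptor P2ry1 (20.6 ± 3.05 against 203 ± 16.7 CPM) and the thrombin receptor F2rl3 (6.39 ± 2.9 against 90.6 ± 11.8 CPM). Granule genes fell in 19 of 22. Pf4, platelet factor 4, read 1008, 105, 176 and 621 CPM against 16180, 12870, 11090 and 13430 CPM. Its level varied almost 10-fold among the Kit+ CD45- libraries and stayed under the Kit- CD41+ range in each of them. Ppbp (42.6 ± 61.1 against 2880 ± 565 CPM) and Thbs1 (73.2 ± 26.1 against 1194 ± 193 CPM) fell likewise.

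Several of the 10 genes with the smallest p on the Kit- CD41+ side link integrins to actin. Of 28 genes of platelet cytoskeleton and signalling 27 fell, with a median of -2.90. Talin, Tln1, read 68.6, 51.3, 50.9 and 52.9 CPM against 364, 316, 285 and 280 CPM (-2.48 ± 0.14, adjusted p = 2.68e-11). Ilk, the integrin-linked kinase, read 248, 313, 220 and 262 CPM against 1410, 1497, 1416 and 1291 CPM (-2.43 ± 0.14, adjusted p = 5.04e-11). Its binding partner Lims1 (PINCH) moved by a like amount, -2.43 ± 0.14. So did Rsu1 by -2.92 ± 0.18, the actin crosslinker Actn1 by -2.46 ± 0.13 and the calponin Cnn2 by -2.63 ± 0.16. Slain2, a promoter of microtubule growth (-3.16 ± 0.19), the RNA-binding protein gene Trove2 (-3.06 ± 0.19) and Gskip, an inhibitor of the kinase GSK3 (-2.40 ± 0.15), completed the 10 smallest p. Tubb1, the platelet beta-tubulin, had means of 19.5 ± 16.2 and 454 ± 84.8 CPM. In the list of integrins and linkers, which shares genes with the platelet lists, 13 of 29 fell and 5 rose, and all 18 were called in the same direction under IgG. Itgb3, the partner of Itga2b, was at 29.1 ± 8.27 against 390 ± 30.7 CPM and Itga6 at 34.4 ± 10.4 against 97.8 ± 3.77 CPM, whereas Itga1, a collagen receptor chain (5.67 ± 1.9 against 0.583 ± 0.578 CPM), and Itga3, a laminin receptor chain (4.52 ± 0.71 against 0.356 ± 0.477 CPM), were higher in Kit+ CD45-.

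For most platelet genes the fitted difference was larger with Dll4 blocked than with IgG, although no single change passed adjustment. The median of the 76 was -3.17 under anti-Dll4 and -2.70 under IgG. The change was below 0 in 67 of them (88.2%), against 50.6% of all genes, with a median of -0.61, and 13 had an unadjusted p under 0.05. These genes share their libraries and are not independent of each other, so the count has no p. For Clec1b the change was -0.82 (95% interval -1.29 to -0.34, unadjusted p = 0.00168). The Kit- CD41+ level was nearly the same with both antibodies (1058 ± 32.9 and 1046 ± 137 CPM), while the Kit+ CD45- level was 94.3 ± 23.2 CPM with anti-Dll4 and 164 ± 24.4 CPM with IgG. Gp9 in Kit+ CD45- was at 30.9 ± 12 CPM with anti-Dll4 and 71.3 ± 45.1 CPM with IgG. The part that a different content of platelets or megakaryocytes in the Kit+ CD45- gate plays in these levels was not tested.

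The promoters to be shown were fixed by rule. They were those of Itga2b and Cdh5, and of the called platelet glycoprotein and pan-endothelial gene with the smallest p. Cdh5 had no entry among the RefSeq promoters and is not shown. The ETS factors Fli1 and Erg moved in opposite directions between the populations. The windows run from 250 bases before to 50 bases after the RefSeq transcription start (RefSeq, GRCm38.p6), given 5′ to 3′ on the gene's strand, with capitals at matches to the ETS core AGGAAG or its complement CTTCCT. Itga2b is the gene of the CD41 gate (chr11:102469834-102470133, minus strand). Its RefSeq start lies 239 bases inside the gene as annotated above, so most of this window, both matches included, is within that gene model. Cd9, a tetraspanin of platelets at 328 ± 84.3 against 2987 ± 637 CPM, is the platelet glycoprotein with the smallest p for which the table has an entry (chr6:125494711-125495010, minus strand), and Cd34 is the matching pan-endothelial gene (chr1:194938571-194938870, plus strand).
Itga2b: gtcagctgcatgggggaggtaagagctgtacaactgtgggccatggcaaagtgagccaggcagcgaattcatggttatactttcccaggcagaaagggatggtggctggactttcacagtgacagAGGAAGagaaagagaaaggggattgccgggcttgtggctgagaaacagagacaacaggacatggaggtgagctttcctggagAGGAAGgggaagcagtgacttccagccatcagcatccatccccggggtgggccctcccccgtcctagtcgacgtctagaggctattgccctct
Cd9: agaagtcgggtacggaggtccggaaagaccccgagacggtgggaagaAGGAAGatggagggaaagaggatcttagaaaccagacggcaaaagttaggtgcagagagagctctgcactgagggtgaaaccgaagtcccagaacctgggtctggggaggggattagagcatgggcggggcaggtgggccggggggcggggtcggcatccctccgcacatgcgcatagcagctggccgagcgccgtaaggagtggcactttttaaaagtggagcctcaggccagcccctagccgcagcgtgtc
Cd34: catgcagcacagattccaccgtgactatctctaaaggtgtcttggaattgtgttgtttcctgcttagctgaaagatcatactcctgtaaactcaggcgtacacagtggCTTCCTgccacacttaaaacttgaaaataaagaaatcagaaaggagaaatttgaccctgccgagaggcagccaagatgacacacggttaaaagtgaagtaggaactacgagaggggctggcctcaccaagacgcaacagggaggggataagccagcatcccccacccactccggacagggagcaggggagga

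Itga2b held 2 such matches, and Cd9 and Cd34 1 each. Searched on both strands, AGGAAG occurred in 33.6% of the 10839 promoters of tested genes with an entry, in 33.9% of the 1072 of genes higher in Kit+ CD45- with both antibodies, in 36.5% of the 1305 of genes lower with both and in 46.9% of the 64 of the platelet lists. The GATA motif AGATAA, which was found in none of the 3 windows, occurred in 6.66%, 8.21%, 6.82% and 14.1%, and the RUNX motif TGTGGT in 12.5%, 12.8%, 12.1% and 12.5%. Smaller lists went past the platelet shares: of 18 pan-endothelial promoters 55.6% held the ETS match, of 11 germ cell promoters 54.5%, and of 15 red cell promoters 33.3% held the GATA match. A match is a run of letters and no evidence of binding.

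Red cell genes were higher in Kit+ CD45-. Of 11 globins 8 rose and 0 fell, with a median of 1.99 (IgG, 2.15). The embryonic globin Hbb-y read 193200, 222800, 92860 and 404100 CPM against 37370, 63920, 47060 and 66770 CPM (2.08 ± 0.49, adjusted p = 0.00213; IgG, 2.23 ± 0.49). The groups did not overlap, but the Kit+ CD45- libraries spread over a range of more than 4-fold. Heme synthesis and iron genes rose in 17 of 21 and fell in none, and 16 of the 17 rose under IgG too. Alas2, which starts heme synthesis in erythroid cells, read 1508, 3307, 1686 and 2862 CPM against 375, 800, 749 and 754 CPM (1.81 ± 0.34, adjusted p = 0.000297). Alad, the next enzyme, was at 1061 ± 362 against 318 ± 80.7 CPM and the mitochondrial iron carrier Slc25a37 at 261 ± 125 against 69.3 ± 18.5 CPM. Of 24 genes of the red cell membrane, its enzymes and regulators 15 rose and 1 fell, with the anion exchanger Slc4a1 at 107 ± 56.1 against 20.3 ± 6.96 CPM. Globin transcripts were present in every library of both gates, at the shares given above, and their part in the other differences was not tested.

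Germ cell genes were higher in Kit+ CD45-. Primordial germ cells express Kit and migrate through the embryo at this age. Of 16 germ cell genes tested, Kit itself among them, 13 rose in Kit+ CD45- and 0 fell, and all 13 rose under IgG. The median was 4.57, or 4.26 with genes at 0 in one population set to their floor. Dppa3 (Stella), a defining marker, read 42.4, 119, 193 and 75.9 CPM against 0, 0.101, 0 and 0.111 CPM, which is 1 count in each of 2 Kit- CD41+ libraries. Dppa5a read 11.3, 20.8, 66.5 and 26 CPM against 0.1, 0, 0 and 0 CPM. Both were among the 10 smallest p on the Kit+ CD45- side. Pou5f1, the pluripotency factor Oct4, read 0.82, 8.44, 21.0 and 0.219 CPM against 0 in all 4, at least 24.4-fold higher. Replicate 3 of Kit+ CD45- was the highest library for each of these 3 genes and for Tfap2c, Utf1, Alpl, Prdm14 and Nanog, and 2 of the 13 calls, Tfap2c and Dnd1, were lost without it. The summed level of the list was 267.0 to 1164 CPM in Kit+ CD45- and 87.96 to 132.2 CPM in Kit- CD41+. Ifitm3 (159 ± 85.7 against 95.4 ± 16.9 CPM), Nanos3 and Sox2 did not pass.

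Few markers of other cells passed the test. Of 19 macrophage genes 1 rose (Fcgr3, 5.31 ± 2.71 against 0.782 ± 0.594 CPM) and 1 fell (Lyz2, lysozyme, 15 ± 0.739 against 98.1 ± 8.58 CPM). Adgre1, Mpeg1, Ctss and Ms4a7 were at 0 in all 8 libraries, C1qa was at 0 in Kit- CD41+ and C1qb in Kit+ CD45-. The list summed to 25.49 to 34.01 CPM against 103.3 to 113.6 CPM, most of it Lyz2 on the Kit- CD41+ side. In the list of granulocyte and monocyte progenitor genes 2 of 8 rose, against 14.7% of all genes. One was Irf8, whose call was lost without replicate 3 of Kit+ CD45- (adjusted p = 0.263), and the other Mpo, myeloperoxidase, at 4.78, 17.9, 11.9 and 7.87 CPM against 0, 0.907, 0.522 and 1.22 CPM (4.02 ± 0.94, adjusted p = 0.00219). It was not called under IgG (0.76 ± 0.72, adjusted p = 0.476; change between antibodies 3.26, unadjusted p = 0.0133), where the Kit- CD41+ mean was 5.22 ± 6 CPM. Of 18 mesenchymal and smooth muscle genes 0 passed with either antibody, but their transcripts were present, with a summed level of 44.08 to 688.9 CPM in Kit+ CD45- and 112.3 to 362.5 CPM in Kit- CD41+. Col1a1 was highest in replicate 4 of both anti-Dll4 populations, at 51.8 and 26.9 CPM against 0.2 to 4.78 CPM in the other 6. Epithelial and liver bud genes fell in 2 of 13, Krt8 (2.92 ± 1.9 against 14.4 ± 5.08 CPM) and Afp. Afp rested on replicate 1 of Kit- CD41+ (24.7 CPM, the others 0.627 to 1.33 CPM) and was lost without it. The 2 of 13 are near the background of 15.2% lower, and neither gene was called under IgG, where 3 others of the list rose. None of the 2 mast cell genes tested passed.

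Cell cycle genes leaned to Kit+ CD45-, by small steps. Of 25 S phase genes 12 rose and 0 fell, and of 27 genes of G2 and mitosis 14 rose and 0 fell, with medians of 0.49 and 0.50 against 0.068 for all genes. Mki67, the proliferation antigen, read 148, 207, 170 and 300 CPM against 96.3, 107, 61.9 and 95.1 CPM (1.19 ± 0.19, adjusted p = 3.78e-05; IgG, 0.73 ± 0.19). Its groups did not overlap. None of the S phase and 2 of the G2 and mitosis genes passed a test against a fold of 1.5, and 8 and 10 of the calls were shared with IgG. Cdkn2d, an inhibitor of the G1 kinases, was the reverse, at 112, 93.6, 79.1 and 105 CPM against 816, 661, 637 and 668 CPM (-2.83 ± 0.20, adjusted p = 3.14e-10), and Rb1, the retinoblastoma protein, fell by 1.08 ± 0.17.

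Cholesterol synthesis and glycolysis genes were more often lower than higher in Kit+ CD45-. Of 24 cholesterol synthesis and sterol control genes 15 fell and 1 rose, 13 and 1 of them with IgG as well, and the median was -0.82. Mvd, an enzyme of the mevalonate pathway, read 18.7, 25.3, 26.9 and 16 CPM against 77.0, 82.1, 80.6 and 81.2 CPM (-1.88 ± 0.22, adjusted p = 6.12e-07). The 1 gene that rose was Abca1, which exports cholesterol (7.49 ± 2.95 against 0.778 ± 0.306 CPM). Of 24 glycolysis and hypoxia genes 9 fell and 0 rose, Aldoa by 0.86 ± 0.11, Ldha by 0.74 ± 0.12 and the hypoxia-induced Egln3 by 1.69 ± 0.31. Of 27 respiratory chain genes 1 passed, Ndufv1 at 0.39 ± 0.12, and its call was lost without replicate 1 of all anti-Dll4 groups (adjusted p = 0.0591) and in several other settings.

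Signalling lists were shared with IgG to differing degrees. In the TGF-beta and BMP list of 26, 8 rose and 3 fell (13 and 3 under IgG, with 8 and 2 in common). The background was 14.7% higher and 15.2% lower. Without replicate 1 of all 3 anti-Dll4 groups 4 rose and 3 fell. The endothelial receptor Acvrl1 was at 13.7 ± 5.54 against 0.457 ± 0.568 CPM, its co-receptor Eng at 14.6 ± 2.75 against 3.99 ± 1.89 CPM and Tgfbr2 at 6.9 ± 1 against 1.06 ± 0.675 CPM. The ligand Tgfb1, which platelets store, was at 59.2 ± 7.43 against 289 ± 34.3 CPM and its binding protein Ltbp1 at 4.79 ± 2.21 against 34.3 ± 4.93 CPM. Of 20 Hox and imprinted genes 10 rose and 0 fell, and all 10 were among the 12 that rose under IgG. Without replicate 1 of all 3 anti-Dll4 groups 6 rose. Plagl1, an imprinted zinc finger factor, read 47.8, 28.3, 45.8 and 41.1 CPM against 4.42, 5.84, 4.91 and 5.34 CPM (2.99 ± 0.27, adjusted p = 1.58e-08), and the growth factor gene Igf2 had means of 114 ± 29.9 and 23.3 ± 3.12 CPM. Kitl, the ligand of Kit, was itself higher in Kit+ CD45- (15.1 ± 6.66 against 1.66 ± 1.61 CPM). Crip2, a LIM protein, read 178, 144, 166 and 115 CPM against 17.4, 17.1, 26.9 and 28.6 CPM (2.75 ± 0.25, adjusted p = 1.84e-08). In the list of NF-kB and TNF response genes 4 of 22 rose and 2 fell, near the background of 14.7% and 15.2%. The leukocyte adhesion molecule Icam1 (11.8 ± 5.79 against 0.751 ± 0.547 CPM) rose. Those that fell were Tnf (0.253 ± 0.419 against 7.45 ± 3.34 CPM) and Birc3, whose call was lost without replicate 4 of Kit- CD41+ (adjusted p = 0.0645). Of 18 interferon response and MHC genes 4 fell and 1 rose, against 15.2% and 14.7% of all genes. Of these, 2 and 0 were called under IgG, with Isg15 at 0.39 ± 0.313 against 13.8 ± 1.42 CPM. The 1 that rose, Irf1, rested on replicate 3 of Kit+ CD45- (0.27, adjusted p = 0.796 without it) and did not pass with the replicate block (adjusted p = 0.0983). Of 14 glucocorticoid response genes 6 rose and 1 fell, 4 and 0 of them also under IgG, with the metallothionein Mt1 at 4319 ± 2616 against 933 ± 227 CPM, in a medium that held hydrocortisone for both antibodies.

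The named genes (at 5 CPM or more in the higher anti-Dll4 population, predicted gene models left out) with the smallest p for a change of the population difference did not pass adjustment and are given by their levels. Flt4, the VEGF-C receptor of lymphatic and venous endothelium, came first. It read 10.7, 7.81, 9.0 and 5.9 CPM in Kit+ CD45- and 0.904, 0.705, 0.209 and 1.11 CPM in Kit- CD41+ under anti-Dll4, and 11.8, 8.88, 14.3 and 16.1 CPM against 0.0855, 0, 0 and 0 CPM under IgG. The population difference was in the same direction with both antibodies, and what set them apart was a trace of Flt4 in all 4 Kit- CD41+ libraries under anti-Dll4 that was 1 count in all under IgG. The fitted change was -4.98 ± 0.86 (unadjusted p = 6.38e-06, adjusted 0.0997), a value that depends on the model's prior count because of those zeros. DESeq2 called it, and edgeR did so without replicate 3 of Kit- CD41+ anti-Dll4 (adjusted p = 0.0160).

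Enpp2, the secreted enzyme autotaxin, had the opposite arrangement. Its Kit+ CD45- levels were 9.7, 10.3, 11.3 and 2.19 CPM with anti-Dll4 and 6.18, 14.6, 13.2 and 3.52 CPM with IgG, while Kit- CD41+ read 0.301, 0, 0 and 0 CPM with anti-Dll4 and 2.14, 3.63, 5.61 and 1.22 CPM with IgG. Here the Kit- CD41+ libraries of the 2 antibodies did not overlap (change 5.00 ± 1.05, unadjusted p = 8.6e-05, adjusted 0.448). Gp6 and Gsn (gelsolin, which cuts actin filaments) had lower means in Kit+ CD45- with anti-Dll4 than with IgG. Gp6 read 2.87, 4.66, 1.7 and 2.4 CPM against 2.77, 26.4, 13.4 and 25.3 CPM in that population, so that IgG replicate 1 lay within the anti-Dll4 range. Gsn read 4.92, 6.42, 2.7 and 0.875 CPM against 15.6, 22.7, 18.9 and 31.0 CPM in that population, with Kit- CD41+ at 108 ± 23.2 and 132 ± 43.3 CPM (change -2.21 ± 0.55, unadjusted p = 0.000567). Gcsam, a signalling adaptor of germinal centre B cells, and Trove2 completed the 5 smallest p below 0 under this filter, with changes of -4.41 ± 1.14 and -1.0 ± 0.25. The 5 above 0 were, beside Enpp2, Tmem94 (1.68 ± 0.46), Mllt10 (0.71 ± 0.21), Fbxw2 (0.54 ± 0.17) and Lrrc47 (1.12 ± 0.35).

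Among genes called under IgG at over 2-fold and 5 CPM or more, 1945 in all, the anti-Dll4 difference was 0.965 times the IgG difference at the median on the log2 scale, with quartiles of 0.763 and 1.16. In 9 genes the ratio was below 0, that is, the sign was opposite. Among the smallest ratios were those of Pkd2, Slit2, Pcnx and Tdrd7, a choice made on these values themselves. Tdrd7, a tudor protein of RNA granules, read 7.66, 5.74, 4.93 and 5.66 CPM against 2.82, 1.77, 2.0 and 0.999 CPM under IgG, and 2.46, 3.15, 2.4 and 1.75 CPM against 3.41, 4.94, 2.19 and 4.12 CPM under anti-Dll4. The first pair of groups did not overlap and the second did (change -2.22 ± 0.45, unadjusted p = 4.86e-05, adjusted 0.379; called by DESeq2). In the signalling lists, Bmp2, a morphogen, differed by 3.36 ± 0.58 under IgG and 0.86 ± 0.53 under anti-Dll4, with an unadjusted p of 0.00391 for the change.

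**Figure D5:**
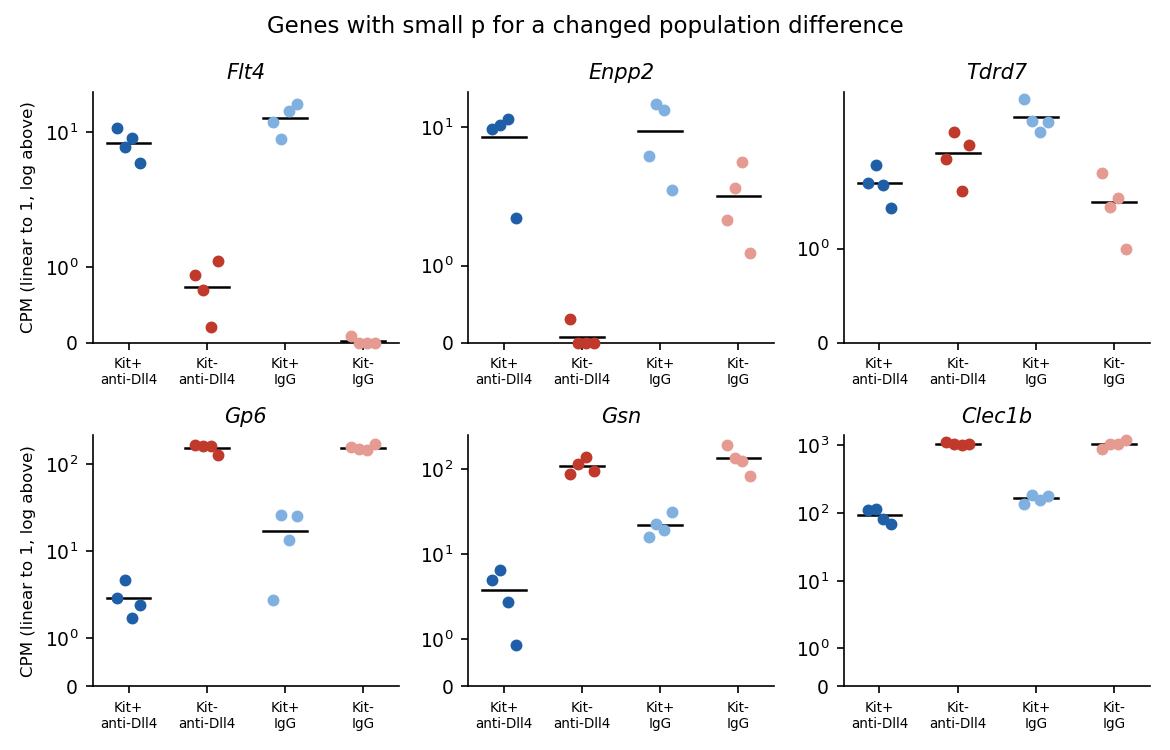
Levels in CPM (linear up to 1, logarithmic above) of 6 genes with small unadjusted p for a changed population difference; each point is a library and each bar the mean of 4. The means of Flt4 and Enpp2 differ between antibodies mainly in Kit- CD41+, and those of Gp6, Gsn and Clec1b mainly in Kit+ CD45-. For Gp6, IgG replicate 1 of Kit+ CD45- lies within the anti-Dll4 range. Tdrd7 keeps apart the populations under IgG and not under anti-Dll4. None of these changes passed adjustment in edgeR.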

How the data were processed

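Polyadenylated RNA of sorted cells was amplified as cDNA by PCR and sequenced, per the labels' protocols. The submitters' processing notes name CASAVA, FastQC, STAR, HTSeq, DESeq2 and mm10; what each did, and the annotation release, is not stated there. The authors deposited whole-number read counts per gene (29716 genes) and a table of log2 values, which equal log2 of count over a size factor plus 1 and were used only for that check. Of the latter table, 1 column that matches no listed sample was not used.

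Counts of 24 libraries in 6 groups of 4 were fitted in edgeR 4.0.16 (R 4.3.3): TMM scaling, genes kept by filterByExpr, robust quasi-likelihood F-test, Benjamini-Hochberg adjustment over 15618 genes in each contrast, threshold 0.05. Contrasts were Kit+ CD45- minus Kit- CD41+ under anti-Dll4, the same under IgG, and their difference. A gene counted as persisting when called in both in 1 direction. The depth was 8718351 to 11379830 counts per library; PCR reads are not independent molecules, and floors (3 counts) cover counting error only. Single values were compared by exact permutation. On simulated counts the anti-Dll4 contrast recovered 94% of 4-fold and 23% of 2-fold changes over 15129 genes. There 200 genes were changed and all genes had the same spread, unlike real genes.

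Named genes were the gate markers and Cdh5; the 10 genes per direction with the smallest p at 5 CPM or more; list members, mainly by smallest p; and the 5 per direction with the smallest interaction p, with the 5 smallest ratios. Some list members were named for their known role, and the results of a few genes are not reported here. The members and lists were chosen with earlier results of these data known. Of 733 list genes, 673 were tested; others were too low or not analysed here. Alternatives were scalings, filters, DESeq2 1.42.0, a fold threshold, left-out libraries and a replicate term. Gene coordinates are from GENCODE for GRCm38 and promoters from RefSeq.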

Additional observations from a re-analysis of the deposited data

Results flagged for a closer look

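Of 60 groups of 4 libraries checked, 8 held a library whose gap to its nearest neighbour exceeded Dixon's critical value at the 95% level; chance gives about 1 in 20. Y-linked genes had 1756 counts in replicate 1 of Kit+ CD45- under anti-Dll4 and 2590 in replicate 1 of Kit- CD41+, with 0 in the other libraries of both groups. Xist had 5 counts and 1 count in the same libraries, against 1994 to 2194 and 1528 to 1559 in the others. Replicate 1 of Kit+ CD45- also stood apart for Col4a1 (87.4 CPM, the others 49.0 to 55.0 CPM) and for Tln1 (68.6 CPM, the others 50.9 to 52.9 CPM). Dppa5a was at 0.1004 CPM in replicate 1 of Kit- CD41+ and at 0 in the others, and Ptprc at 0.8896 CPM in replicate 4 of Kit- CD41+ and at 0 in the others. Both of the last are single or few counts. Kit, Cdh5, Clec1b and the other genes named for their p kept their call without any one library. For genes chosen by small p in these same libraries, that is nearly fixed by the choice.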

How the results depend on the processing

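Against a fold of 1.5 rather than 1, 2291 genes were called under anti-Dll4, 2219 under IgG and 1659 under both. For the change between antibodies, DESeq2 called 5 genes (Tdrd7, 4931440F15Rik, Flt4, Enpp2 and Ndp) where edgeR called 0, and edgeR called 1 (Flt4) without Kit- CD41+ anti-Dll4 replicate 3; leaving out single libraries gave 0 to 1. Leaving out 1 library at a time gave 3870 to 4936 calls under anti-Dll4, 3535 to 4510 under IgG and 2833 to 3251 under both. Without replicate 1, 2, 3 or 4 of both populations, the globin difference ranged from 19.8 to 27.8 percentage points (exact permutation p = 0.1, the smallest possible at 3 against 3). Other scalings, filters and DESeq2 gave 3948 to 5133 calls under anti-Dll4, and no gene of the lists changed direction as a call in any of them. With a replicate block, 4922 genes were called under anti-Dll4 and 4615 under IgG. The labels do not say that a number marks a shared source. Their library codes do begin with the same number in same-numbered libraries of an antibody, without saying what it stands for. Deviations of same-numbered libraries correlated at 0.0975, 0.0461, 0.114 and 0.139 under anti-Dll4 and at -0.0009, -0.0260, 0.0330 and -0.0079 under IgG. Under anti-Dll4 all 4 Kit+ CD45- libraries correlated best with the Kit- CD41+ library of their own number, and 3 of 4 in the other direction; replicate 1 of all 3 anti-Dll4 groups alone held Y-linked counts in number. The codes and these values are hints of a shared source, not a stated design, and the main fit did not use the replicate numbers. In simulated data with these libraries' depth, but the same spread for all genes, 23% of 2-fold population differences were found. Real genes differ in spread, so this share is only a rough guide.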
